A study of Mus musculus with 6 samples.

Results

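In activated mouse CD8+ T cells, 4259 stretches of chromatin lay more than 50 kb from any protein-coding gene and were open in every library of the study. They were chosen from the deposited peak calls. Peaks of the 6 libraries on chromosomes 1 to 19 and X were merged at an overlap of at least 1 bp. Each merged region stayed in if each of the 6 libraries had a peak in it and its midpoint was outside all protein-coding gene bodies and over 50 kb from the nearest. The 4259 regions were 7.53% of the 56599 regions held by all 6 libraries and 3.18% of all 134151 merged regions. They are called far regions below, and each is named by the protein-coding genes on its left and right.

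The assay was ATAC-seq, in which a transposase cuts accessible DNA and leaves sequencing adapters there. The cells were CD8+ T cells taken from mouse spleen by depletion of other cells and activated with antibodies against CD3 (5 µg/mL) and CD28 (1 µg/mL). For 48 h they sat below a porous membrane, with lung adenocarcinoma cells resistant to PD-1 blockade in the insert above. In 1 group of 3 libraries these tumour cells were the control (Res-ctrl), and in the other group of 3 they carried a short hairpin RNA against Fabp7, a fatty acid binding protein (Res-shFabp7). All T cells therefore had a resistant tumour partner and the same activation, and the knockdown was in the tumour cells and not in the T cells sequenced. The labels give biological replicates without saying which cultures or animals they came from, so p-values measure only the spread between these libraries.

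Open chromatin far from genes is typical of enhancers, which bind transcription factors and act on promoters over long distances by looping. It also marks insulators bound by CTCF, promoters of long non-coding RNAs and, in lymphocytes, the antigen receptor loci. Lineage genes of T cells such as Bcl11b, Gata3 and Satb1 are flanked by wide gene deserts known to hold such distal elements. The gene nearest to a region is a position and does not show which gene the region acts on.

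Because distance was measured to protein-coding genes only, some far regions lay at promoters of non-coding genes, and sequences of 5 such promoters follow. RefSeq promoter windows (GRCm38.p6, the primary assembly of mm10), each running from 250 bases before to 50 bases after a gene's start, were matched by position. Windows of 122 genes overlapped 118 far regions, 101 genes had at least 150 bases of their window inside one, and all 101 were long non-coding RNA genes. The windows of 38 genes lay wholly inside a far region. The 5 of these in the strongest far regions are printed 5′ to 3′ on the strand of the gene. Capitals mark matches to 5 motifs searched on both strands.
Gm33195: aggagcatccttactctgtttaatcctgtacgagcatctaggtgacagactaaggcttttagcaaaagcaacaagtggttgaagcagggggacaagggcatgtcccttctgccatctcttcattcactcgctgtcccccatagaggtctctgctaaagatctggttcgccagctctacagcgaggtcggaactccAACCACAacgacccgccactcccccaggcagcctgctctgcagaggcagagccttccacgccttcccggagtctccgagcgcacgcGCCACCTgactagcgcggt
BC002059: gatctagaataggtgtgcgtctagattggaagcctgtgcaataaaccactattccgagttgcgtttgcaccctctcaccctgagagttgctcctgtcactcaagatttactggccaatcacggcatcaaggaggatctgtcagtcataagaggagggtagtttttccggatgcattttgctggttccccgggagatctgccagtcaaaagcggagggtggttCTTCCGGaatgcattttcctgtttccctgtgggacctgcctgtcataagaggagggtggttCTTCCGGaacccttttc
A630089N07Rik: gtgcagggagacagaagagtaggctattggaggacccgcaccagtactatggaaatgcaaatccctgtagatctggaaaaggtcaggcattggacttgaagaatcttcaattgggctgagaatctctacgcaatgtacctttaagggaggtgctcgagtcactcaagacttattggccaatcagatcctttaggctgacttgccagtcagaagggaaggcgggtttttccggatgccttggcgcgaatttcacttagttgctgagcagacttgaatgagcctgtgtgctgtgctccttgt
Gm36223: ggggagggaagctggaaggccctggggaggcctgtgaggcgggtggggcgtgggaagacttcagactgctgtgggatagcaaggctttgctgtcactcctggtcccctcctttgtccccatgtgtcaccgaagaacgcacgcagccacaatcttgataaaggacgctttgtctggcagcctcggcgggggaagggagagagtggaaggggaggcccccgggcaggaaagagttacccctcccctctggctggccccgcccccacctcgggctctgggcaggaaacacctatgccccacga
Gm26901: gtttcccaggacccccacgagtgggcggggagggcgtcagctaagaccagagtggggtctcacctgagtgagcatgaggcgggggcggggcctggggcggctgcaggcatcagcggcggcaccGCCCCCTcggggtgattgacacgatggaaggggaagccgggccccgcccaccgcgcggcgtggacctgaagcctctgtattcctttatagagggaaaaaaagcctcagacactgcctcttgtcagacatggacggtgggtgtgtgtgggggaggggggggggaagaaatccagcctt
The windows are chr13:43864305-43864604 on the plus strand (Gm33195, between Cd83 and Jarid2), chr17:16951286-16951585 on the plus strand (BC002059, between Rgmb and Gm51425), chr16:98082390-98082689 on the minus strand (A630089N07Rik, beyond B230307C23Rik, the last gene of its chromosome), chr5:111509028-111509327 on the plus strand (Gm36223, between Mn1 and Cryba4) and chr1:7398047-7398346 on the minus strand (Gm26901, between Pcmtd1 and Sntg1).

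The open summit, the base with the highest coverage, kept its place relative to some of these starts and moved at others. At Gm33195 it lay 133 to 134 bases past the annotated start in the 6 libraries, at Gm36223 58 to 64 bases past, and at Gm26901 25 to 31 bases before the start, written -31 to -25. At BC002059 it ranged from -139 to -89. The A630089N07Rik region was wider, and its summit moved between -72 and 376. The authors' fold at Gm33195, the summit height over local background, was 37.6, 38.3 and 40.1 with Res-shFabp7 and 39.2, 34.8 and 37.8 with Res-ctrl. At BC002059 it was 35.5, 35.7 and 36.9 with Res-shFabp7 and 36.0, 33.7 and 37.6 with Res-ctrl. Both promoters were picked for the strength of their regions over the 6 libraries, so high values in either group come with that choice.

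The motifs were CCGGAAG for ETS factors, TGTGGTT for RUNX factors, TGANTCA for AP-1, CTTTGAT for TCF and LEF factors, and AGGNGGC, a core of the CTCF site. ETS1, RUNX1 and RUNX3, AP-1, and TCF1 with LEF1 are transcription factors of T cells. The Gm33195 window held a RUNX match that begins at -55 and a CTCF core match at 32, BC002059 held ETS matches at -28 and 34, and Gm26901 held a CTCF core match at -127. A630089N07Rik and Gm36223 held none of these letters. The RUNX motif was in 17 of the 101 windows (16.8%), against 5.37% of all 27025 RefSeq windows and 6.37% of the 9520 windows of long non-coding RNA genes. The AP-1 motif was also in 17 windows (16.8%, against 7.93% and 9.50%), and the TCF and LEF motif in 7 (6.93%, against 3.72% and 4.59%). The ETS motif was in 4 windows (3.96%, against 9.12% and 4.03%), and the CTCF core in 24 (23.8%, against 28.9% and 21.5%). The RUNX, AP-1, TCF and LEF letters were thus more frequent in these windows than in either background. For TCF and LEF this rested on 7 windows. The ETS letters were less frequent than over all windows. Neither background was limited to windows open in these cells, and the comparison is a description and no test.

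Base composition placed these windows between the non-coding and coding promoters. Their median GC content was 50.7%, against 48.7% for all long non-coding RNA windows and 56.3% for the 17274 coding windows. Their median number of CpG dinucleotides per window was 7, against 4 and 14. Gm26901 (18 CpG, 65.7% GC) and Gm33195 (15 CpG, 57% GC) were CpG-rich, and A630089N07Rik (7 CpG, 49% GC) was not. The BC002059 window repeated a run of 20 bases around its ETS matches and shared a run of 14 bases with A630089N07Rik, while all other pairs among the 5, and each of the other 4 windows with itself, shared at most 10 bases.

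The libraries differed in depth, which touches every value below. The lists held 100243 to 105796 peaks with Res-shFabp7 and 82153 to 96310 with Res-ctrl. The background pileup, the most frequent local background in a list and a relative measure of depth, was 0.868 to 1.03 with Res-shFabp7, 0.709 and 0.608 in Res-ctrl replicates 1 and 2, and 1.01 in Res-ctrl replicate 3. Of the marker genes chosen to check the cell type, 7 of 7 for CD8 T cells had a region held by all libraries within 5 kb, as did 3 of 3 for CD4 T cells, 2 of the 3 B cell markers reported, 1 of 3 for NK cells, 2 of 4 for myeloid cells and 2 of 5 for epithelial tumour cells. Ms4a1, Ncr1, Klrb1c, Csf1r, Adgre1, Krt8, Krt18 and Nkx2-1 had none. Fold and pileup are the authors' values per peak and are not normalised between lists, so folds are printed as data and groups are compared by the percentile of fold within each library. Where groups are said to overlap or lie apart at a region, this refers to those percentiles.

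Far regions covered a wide range of strength and were mostly single peaks. The fold of a region, taken as the median of its 6 libraries, ranged from 2.75 to 44.8 with a median of 10.5, and its middle 50% lay between 7.56 and 15.9. The lowest −log10 q over the 6 libraries, the weakest call that kept a region in, had a median of 12.9 and ranged from 1.37 to 349. Merged width had a median of 349 bp (73 to 1714 bp). Each library had exactly 1 peak in 3316 of the 4259 regions (77.9%), and the summits of the 6 libraries lay within 50 bp of each other in 1852 (43.5%). These values passed the call threshold by construction and are given as a description.

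Distance to the nearest protein-coding gene had a median of 103620 bp. Over 100 kb away were 2219 regions, over 500 kb 151, and over 1 Mb 19. The regions nearest the distance threshold were, inside it, in Sulf2/Gm30733 at 50025 bp, Uaca/Tle3 at 50041 bp and Rad23b/Klf4 at 50042 bp, with a fold of 8.29, 10.3 and 8.50. Just too close were regions in Ets2/Psmg1 at 49991 bp, Slitrk5/Gpc5 at 49965 bp and Gzmb/Atp12a at 49963 bp, with a fold of 7.92, 7.67 and 11.9. Regions on the 2 sides of the threshold thus had overlapping folds.

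The fold of the 10 strongest far regions lay between percentiles 91.4 and 99.8 of all regions held by 6 libraries, in every library. These 10 were picked for the strength of their calls in the same libraries, so high percentiles come with that choice. Ranked by the lowest −log10 q over the libraries, the first lay between Lemd2 and Grm4 (chr17:27322798-27323468, 99254 bp from Grm4), at 349. Its fold was 37.6, 37.3 and 39.9 with Res-shFabp7 and 35.0, 35.6 and 34.3 with Res-ctrl. Its percentiles were 99.3, 99.1 and 99.6 against 98.6, 99.1 and 97.5, an overlap of the groups, although the folds lay apart. On the scale of normal scores of ranks, the difference was 0.30 with a standard error of 0.14, which did not pass the test (limma adjusted p = 0.371). The second lay between Wnt7b and Ppara (chr15:85634352-85634918) at 330, over the non-coding gene D130051D11Rik. Its fold was 27.8, 26.4 and 28.2 with Res-shFabp7 and 27.6, 26.5 and 28.0 with Res-ctrl, and the groups overlapped.

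Genes of T cell function flanked several of the other strongest regions. The third lay between Tnfsf18, a ligand that costimulates T cells, and Fasl, the death ligand of cytotoxic T cells (chr1:161670799-161671306, 109639 bp from Fasl). Its fold was 39.2, 39.4 and 39.7 with Res-shFabp7 and 36.6, 38.3 and 41.7 with Res-ctrl, an overlap of the groups. The fourth lay between Foxo1, a transcription factor of T cell quiescence, and Cog6 (chr3:52458389-52459075, 108623 bp from Foxo1). Its fold was 34.7, 33.1 and 33.6 with Res-shFabp7 and 33.3, 31.9 and 31.5 with Res-ctrl, also overlapping. The fifth lay between Ccdc54 and Cblb, which encodes a ligase that dampens T cell receptor signalling (chr16:51690614-51691310, 340268 bp from Cblb), with a fold of 27.3 to 28.7 with Res-shFabp7 and 27.5 to 29.6 with Res-ctrl.

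The remaining regions of the strongest 10 lay in Pmepa1/1700021F07Rik, Gm15319/Gm40469, Zfat/Khdrbs3, Cd83/Jarid2 and Gdf6/2610301B20Rik, with a lowest −log10 q of 280 down to 264. The Gm15319/Gm40469 region lay on the non-coding genes 2610005L07Rik and Gm20584 and varied least, with a fold of 40.7 to 41.0 with Res-shFabp7 and 40.7 to 41.7 with Res-ctrl. At Zfat/Khdrbs3, 104377 bp from the zinc finger gene Zfat, the fold was 31.3, 30.4 and 30.5 with Res-shFabp7 and 32.2, 32.6 and 32.3 with Res-ctrl. Its percentiles, 96.6, 95.7 and 95.6 against 97.4, 98.1 and 96.3, overlapped between groups. The difference, -0.18 normal score units with a standard error of 0.11, did not pass the test (limma adjusted p = 0.495).

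**Figure D1:**
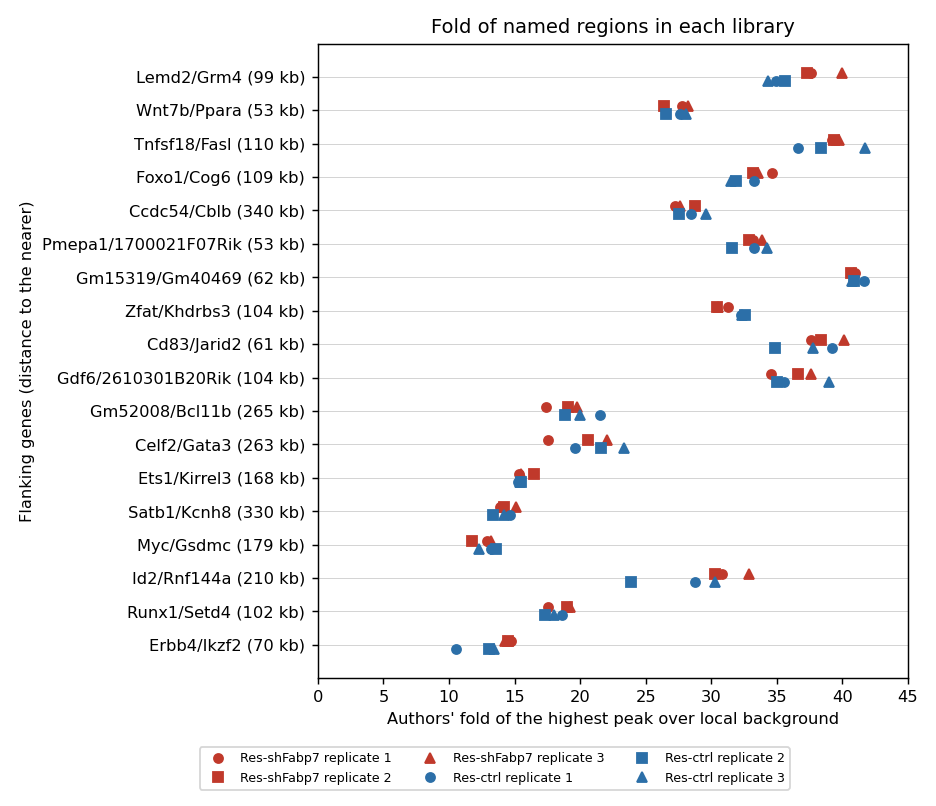
Fold over local background (x axis, the authors' value) in each of the 6 libraries for the 10 strongest far regions (upper 10 lines) and the strongest far region nearest to each of 8 T cell genes (lower 8), with the distance to the nearer gene in kb. Each point is 1 library. Points of both groups lie close together on most lines, and values run from 10.5 on the Ikzf2 line to 41.7 on the Tnfsf18/Fasl line.

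Relative to all regions held by 6 libraries, few far regions reached the top. In each of the 6 libraries, 150 far regions (3.52%) were among the highest 10% of folds, against 3611 (6.90%) of the 52340 other regions. The median fold per library was compared between classes, and the difference of each library was tested by a two-sided exact sign-flip permutation over the 6 libraries, with adjustment over 6 comparisons. The smallest p this allows is 0.03125. The median fold of far regions was 11.5, 11.3 and 11.4 with Res-shFabp7 and 9.37, 9.33 and 11.1 with Res-ctrl. In regions within 1 kb of an end of a protein-coding gene it was 15.6, 15.9, 15.7, 15.9, 15.0 and 16.5 in the same order. Far regions were lower in 6 of 6 libraries, with a mean difference of -5.11 (range -6.52 to -4.09; exact sign-flip permutation, adjusted p = 0.0469). Against all other regions held by 6 libraries the mean difference was -0.207, between -0.585 and 0.121 in single libraries, and did not pass the test (exact sign-flip permutation, adjusted p = 0.219).

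Far peaks were also narrower than peaks at gene ends, and their summits were placed less alike. The median width of the peak in far regions was 217 to 265 bp in the 6 libraries, against 365 to 437 bp at gene ends, a mean difference of -167 bp (lower in 6 of 6; exact sign-flip permutation, adjusted p = 0.0469). Against all other regions the difference was -3.33 bp (range -6 to 2; exact sign-flip permutation, adjusted p = 0.075). Summit offset, the distance of a library's summit from the median of the 6, had a median of 6.5 bp in each Res-shFabp7 library and of 8.5, 9 and 6 bp in the Res-ctrl libraries. At gene ends it was 3 to 4 bp, a mean difference of 3.92 bp (higher in 6 of 6; exact sign-flip permutation, adjusted p = 0.0469). Against all other regions the difference was 1.75 bp (higher in 6 of 6; same test, adjusted p = 0.0469). Against gene ends fold differed along with summit offset, whereas against all other regions the fold difference did not pass the test. The part of fold in the offset was not tested in either comparison.

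**Figure D2:**
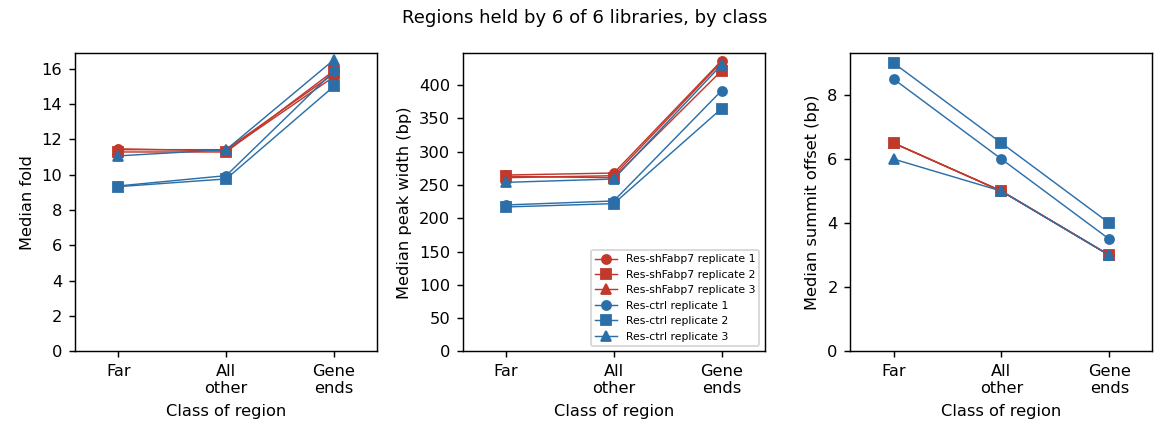
Median fold, median peak width (bp) and median summit offset (bp) in each library (lines, 1 per library) for far regions, all other regions held by 6 of 6 libraries, and those within 1 kb of an end of a protein-coding gene. Far regions and all other regions differ little in fold and width, gene ends are higher and wider in every library, and for far regions Res-ctrl replicates 1 and 2 have the lowest fold and width and the highest offset.

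Far regions were bunched in a minority of the stretches between genes. The genome holds 2768 stretches of over 100 kb between neighbouring protein-coding genes, and 769 of them (27.8%) held a far region. Only the part over 50 kb from both genes can hold one, so stretches little over 100 kb have little room. The 118 stretches with at least 10 held 2332 far regions (54.8% of all), and the fullest 10 held 475 (11.2%). The median distance from a far region to the next one was 4.88 kb, 2857 (67.1%) had another within 10 kb, and 265 were over 200 kb from any other. Of the 281 stretches of over 1 Mb, 191 held none. The longest empty stretches lay between Pcdh20 and Pcdh9 (4542 kb), Celf4 and Pik3c3 (4511 kb) and Olfm4 and Pcdh17 (4420 kb), where protocadherins are adhesion molecules of neurons. The whole length over 50 kb from a gene was 940.9 Mb, so that the mean density was 4.51 far regions per Mb.

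By chromosome, far regions ranged from 2.21% of the regions held by all libraries on chromosome 11 (102 of 4618) to 13.7% on chromosome 12 (322 of 2357). Chromosome 10 followed with 12.8% (415) and chromosome 13 with 11.96% (279). Chromosome 12 carries Id2, Bcl11b and the immunoglobulin heavy chain locus, whose stretches are among the 10 fullest.

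The fullest stretch, with 62 far regions, was Gm36448/Dad1 on chromosome 14, which holds the T cell receptor alpha and delta locus. Next came Myc/Gsdmc with 58, downstream of the growth regulator Myc, and Id2/Rnf144a with 53, beside Id2, an inhibitor of E proteins needed for effector CD8 T cells. Eea1/Btg1 and Satb1/Kcnh8 held 50 each. Btg1 is an antiproliferative factor of quiescent T cells and Satb1 a chromatin organiser of T cell development. Foxo1/Cog6 held 46, Gm52008/Bcl11b 45, Adam6a/Zfp386 38, Haao/Zfp36l2 37 and Klf14/Mkln1 36. Bcl11b is a transcription factor of T cell commitment, Adam6a/Zfp386 spans the immunoglobulin heavy chain locus, and Zfp36l2 encodes a protein that promotes decay of AU-rich mRNAs. Outside the fullest 10, Celf2/Gata3 held 35 and Ets1/Kirrel3 30, beside the T cell factors Gata3 and Ets1.

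Density per stretch was taken over the part of it more than 50 kb from both genes. It spanned a wider range than the counts. Among the 10 fullest it was highest in Haao/Zfp36l2, at 157 far regions per Mb, followed by Eea1/Btg1 and Klf14/Mkln1 at 106 each, and lowest in the heavy chain locus, at 15.8. Between Myc and Gsdmc, which lie 1786 kb apart, it was 34.4 per Mb. The regions there began 53549 bp from Myc and included the gene Pvt1, a non-coding RNA gene beside Myc. Of the 58, 23 overlapped a non-coding gene. In Id2/Rnf144a, 16 of 53 did, and in Gm52008/Bcl11b 6 of 45.

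**Figure D3:**
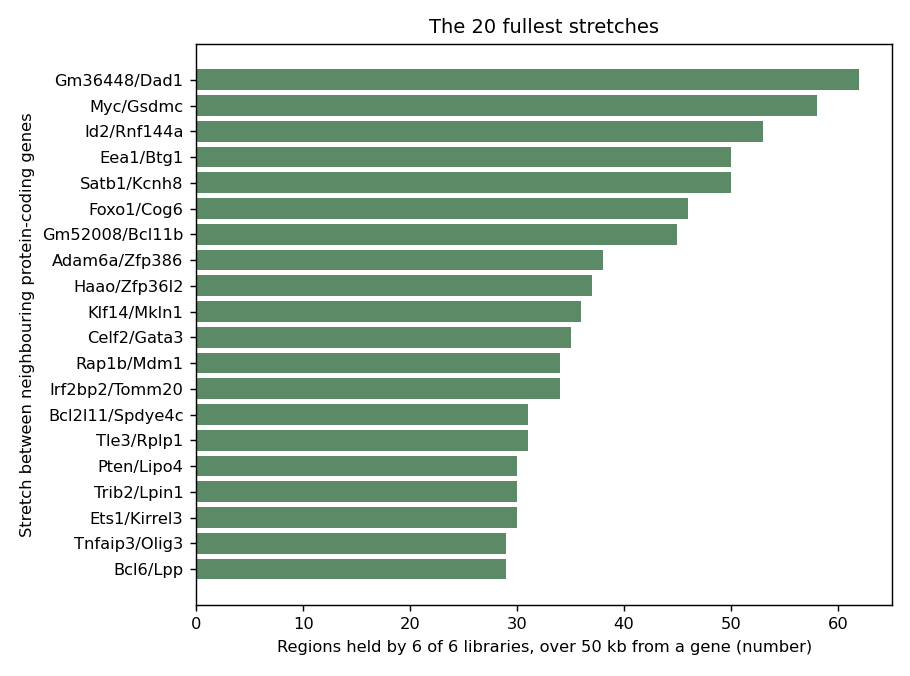
Number of far regions (x axis) in each of the 20 stretches between neighbouring protein-coding genes (y axis) with the most. Counts run from 62 in Gm36448/Dad1 to 29 in Bcl6/Lpp, and 4 more stretches hold at least 50.

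**Figure D4:**
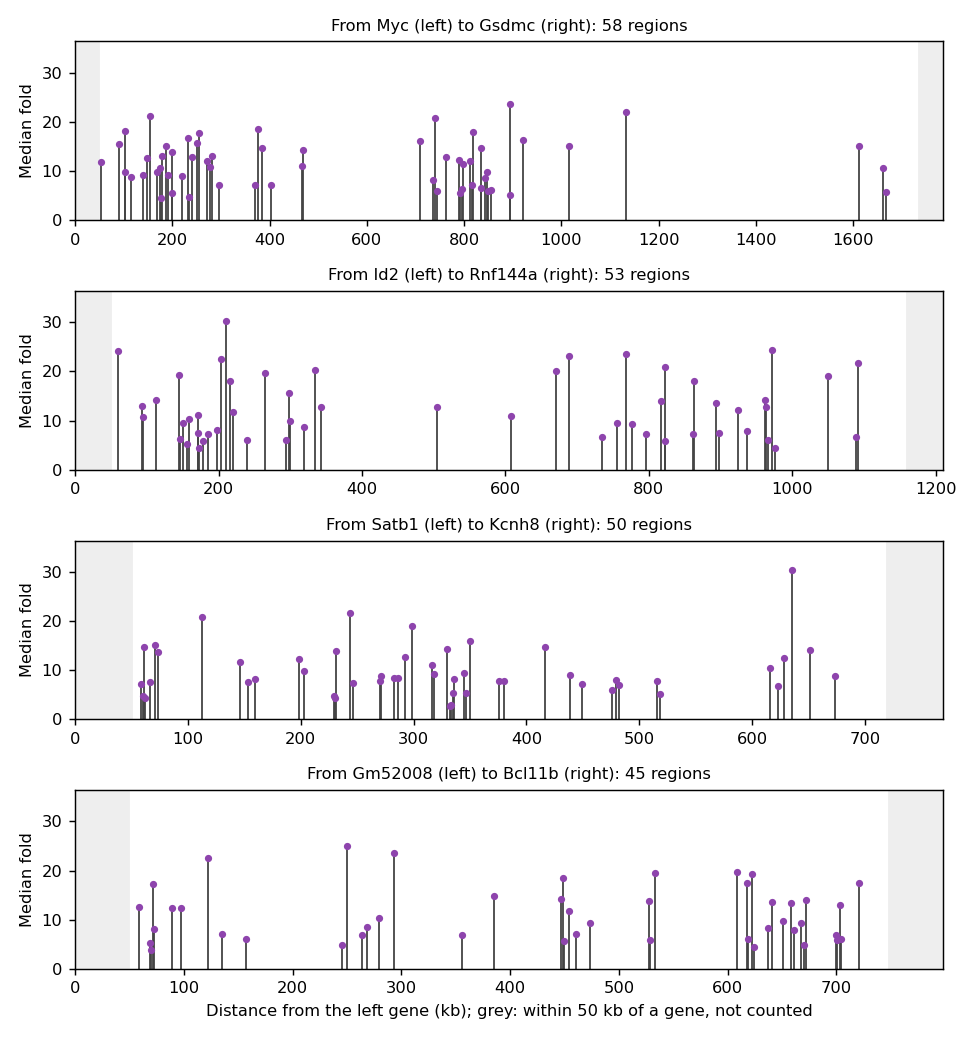
Position of every far region along 4 of the fullest stretches (x axis, kb from the gene on the left, each panel on its own scale) against its median fold over the 6 libraries (y axis). Grey marks the outer 50 kb, where regions were not counted; in Myc/Gsdmc the regions form 2 groups with few regions between them, and in Gm52008/Bcl11b they run over the whole stretch.

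Within the stretches, strength varied between neighbours. The strongest region nearest to Myc (chr15:62169201-62170195, 179337 bp away, over Pvt1) had a lowest −log10 q of 168, with a fold of 12.9, 11.7 and 13.2 with Res-shFabp7 and 13.2, 13.6 and 12.3 with Res-ctrl. The strongest nearest to Id2 (chr12:25305745-25306665, 210113 bp away, over Gm46343) had a fold of 30.8, 30.3 and 32.8 with Res-shFabp7 and 28.8, 23.9 and 30.3 with Res-ctrl. Its percentiles were 96.3, 95.6 and 97.2 against 94.9, 90.4 and 94.7, so that the groups lay apart, with a limma adjusted p of 0.341. In both stretches the median fold over the regions was near that of the whole class, at 11.6 for Myc/Gsdmc and 11.1 for Id2/Rnf144a, against 10.5.

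The lineage factors gave a similar picture. The strongest region nearest to Bcl11b (chr12:107645230-107645907, 264835 bp away) had a fold of 17.4 to 19.8 over the Res-shFabp7 libraries and 18.8 to 21.5 over the Res-ctrl libraries. Beside Gata3 (chr2:9593802-9594386, 262984 bp away) it was 17.6, 20.6 and 22.0 against 19.6, 21.6 and 23.3. In both, the groups overlapped. The region beside Ets1 (chr9:32925959-32926669, 168494 bp away) varied little, at 15.3, 16.5 and 15.5 against 15.3, 15.5 and 15.4. Those beside Satb1 (chr17:52162311-52163348, 329539 bp away) and Runx1 (chr16:92928187-92928530, 102284 bp away), another T cell factor, had folds of 13.4 to 15.1 and 17.3 to 19.2 over the 6 libraries. Beside Ikzf2, which encodes the factor Helios, the strongest of 3 regions (chr1:69461218-69461585) had 14.7, 14.5 and 14.3 against 10.5, 13.1 and 13.5. Its percentiles, 64.4, 63.8 and 62.5 against 53.3, 65.5 and 59.2, overlapped between groups. No far region had Il2ra as its nearest gene.

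Genes of the T cell lists were nearest to a far region more often than protein-coding genes as a whole. All 4259 had 1021 nearest genes, 4.72% of the 21631 protein-coding genes. Of 26 CD8 T cell identity and lineage genes, 10 (38.5%) were nearest to at least 1 far region, with 167 regions in all, led by Satb1 with 37, Gata3 with 35, Ets1 with 30 and Bcl11b with 27. Of 41 activation, effector and checkpoint genes, 17 (41.5%) were, with 193 regions, led by Myc with 60, Id2 with 28, Jun, an AP-1 subunit, with 19, and Cblb with 14. Ifng, the effector cytokine, Eomes, a T-box factor of memory and effector cells, and Icos, a costimulatory receptor, had 12 each. Of 18 naive, memory and quiescence genes, 10 (55.6%) were, with 167 regions, led by Btg1 with 44, Satb1, which is on both lists, and Foxo1 with 22. These are counts of positions. By the distance rule, only a gene beside a stretch of over 100 kb or a chromosome end can be nearest to a far region. The share of such genes was not counted, for the lists or for all 21631 genes. Genes beside wide deserts can also be nearest to more regions than others.

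Other lists gave lower counts. Of 26 cytokines and cytokine receptors, 3 (11.5%) were nearest to a far region: Tgfbr2, a TGF-beta receptor, with 25, Ifngr1, an interferon gamma receptor chain, with 8, and Xcl1, a chemokine, with 3. Of 22 chemokine receptor and homing genes, 3 (13.6%) were, with 17 regions for Cxcr4, 10 for Itga4 and 1 for Cd44. Of 21 B cell, NK cell and myeloid markers only Ebf1, a B cell factor, was nearest, to 2 regions. Of 19 epithelial tumour markers only Epcam was, to 1 region with a fold of 26.9, and of 47 neuronal adhesion genes in the table, typical neighbours of gene deserts, only Cntn5, to 5 regions. The shares of these last 3 lists were 4.76%, 5.26% and 2.13%, near the 4.72% of all genes.

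The antigen receptor loci held 133 far regions (3.12%), since their gene segments are not annotated as protein-coding. The T cell receptor alpha locus held 62, of which 24 overlapped a gene segment, the beta locus 21 with 12 on a segment, and the gamma locus 4. The delta locus, which lies inside the alpha locus, held 9 of the 62. The strongest in the beta locus, at Trbv12-1 (chr6:41112940-41113633), had a fold of 15.9, 16.1 and 15.5 with Res-shFabp7 and 18.9, 17.2 and 18.4 with Res-ctrl. The strongest in the alpha locus, at Trav14-1 (chr14:53553748-53554278), had 26.2, 26.1 and 24.7 against 26.2, 23.4 and 23.2. In percentiles the beta region was higher in all 3 Res-ctrl libraries than in any Res-shFabp7 library, with a limma adjusted p of 0.312, and the alpha region overlapped between groups.

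The immunoglobulin heavy chain locus, which is rearranged in B cells, held 43 far regions, of which 29 overlapped a gene segment. The kappa locus held 3 and the lambda locus 0. The strongest heavy chain region, at Ighv14-2 (chr12:113994341-113994592), ranked between percentiles 98.8 and 99.97 of all regions, with a fold of 38.8, 40.8 and 47.1 with Res-shFabp7 and 35.8, 35.2 and 41.9 with Res-ctrl, an overlap of the groups. Of the B cell markers, Cd79a and Pax5 each had a region held by 6 libraries near the gene (strongest −log10 q 185 and 8.08), and Ms4a1 had none. Whether B cells took part in the heavy chain values was not tested. In the Adam6a/Zfp386 stretch the mean percentile of fold was 64.3, 68.3 and 68.6 with Res-shFabp7 and 58.3, 60.1 and 61.6 with Res-ctrl, the highest of the 10 fullest stretches in every library.

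Non-coding genes were common under the far regions. A non-coding gene body overlapped 1328 (31.2%), and a long non-coding RNA gene 1154 (27.1%), with 539 such genes in all, whereas 2931 (68.8%) were outside all annotated genes. The class depends on this choice: with distance measured to every RefSeq gene, non-coding ones included, 661 regions remained over 50 kb away. Tied to non-coding genes were, among the strongest, the Wnt7b/Ppara region over D130051D11Rik and a region on the X chromosome between Rab39b and Pls3. The X chromosome region (chrX:75673821-75674647) lay over LOC115489104. It had a fold of 28.0, 25.7 and 25.7 with Res-shFabp7 and 26.1, 26.6 and 26.6 with Res-ctrl. Its groups overlapped.

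A microRNA cluster lay next to 5 far regions and was chosen for description after its values were seen. The miR-17 cluster, whose microRNAs promote proliferation and survival of activated lymphocytes, lies between Slitrk5 and Gpc5 on chromosome 14. The mature sequences (RefSeq, GRCm38.p6) of its leading arms are printed with the seed, bases 2 to 8, in capitals, to show which members share a seed.
miR-17-5p: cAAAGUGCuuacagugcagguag
miR-20a-5p: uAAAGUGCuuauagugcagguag
miR-18a-5p: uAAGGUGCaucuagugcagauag
miR-19a-3p: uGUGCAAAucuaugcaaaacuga
miR-19b-3p: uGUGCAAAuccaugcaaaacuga
miR-92a-3p: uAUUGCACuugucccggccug
miR-17-5p and miR-20a-5p have 1 seed, miR-19a-3p and miR-19b-3p another, and miR-18a-5p and miR-92a-3p each their own. The 5 far regions ended 9961, 3238, 2451, 1930 and 1667 bases before the Mir17 hairpin (chr14:115043671-115043754). All lay close to the distance threshold, 50283 to 58615 bp from Gpc5, so that they are members by a small margin. The strongest (chr14:115040547-115041220) had a fold of 13.9, 12.2 and 14.3 with Res-shFabp7 and 15.4, 15.7 and 13.4 with Res-ctrl, and the groups overlapped. The weakest by fold, at chr14:115041361-115041741, had 3.48, 3.56 and 3.80 against 4.26, 4.50 and 3.24.

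Among the 5 far regions most distant from genes the lowest −log10 q ranged from 59.9 to 4.84. The farthest lay between Cntnap5b and Cdh20 (chr1:102628155-102628353), 2137655 bp from the nearer gene. Its fold was 34.6, 31.7 and 34.8 with Res-shFabp7 and 32.7, 26.8 and 29.7 with Res-ctrl, and by percentile only Res-ctrl replicate 1 was inside the Res-shFabp7 range (limma adjusted p = 0.335). The second, in the same stretch at 1411950 bp, had a fold of 15.4 to 19.6 over the 6 libraries. The third lay 1253741 bp from Zeb2, a factor of terminal effector T cells (chr2:46370983-46371384), with 19.3, 19.1 and 20.6 with Res-shFabp7 and 13.9, 14.1 and 17.9 with Res-ctrl. By percentile, too, all Res-shFabp7 libraries were above all Res-ctrl libraries there, and the difference of 0.29 normal score units (standard error 0.11) did not pass the test (limma adjusted p = 0.293). The fourth was in the heavy chain locus, and the fifth, 1182876 bp from Gata3, was weak, with a fold of 5.27 to 8.39.

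The 5 widest far regions measured 1232 to 1714 bp. The widest, between Bbx and Ccdc54, had a fold of 8.94, 10.3 and 9.24 with Res-shFabp7 and 10.3, 9.02 and 12.2 with Res-ctrl. By percentile it was lower in every Res-shFabp7 library (36.1, 44.7 and 38.1) than in any Res-ctrl library (52.0, 45.8 and 54.1), with a limma adjusted p of 0.463. The next was 1662 bp wide, 115006 bp from Cebpb, a transcription factor of inflammatory responses, with a fold of 13.9 to 16.3 over the libraries. Regions of 1607 bp in Irf2bp2/Tomm20, 1421 bp in Rnf19a/Ankrd46 and 1232 bp in Chd2/Fam174b followed, with median folds of 11.8, 21.2 and 18.05. In these 5, the order of width was not the order of fold.

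In the first 3.1 Mb of a chromosome lay 11 far regions, 10 of them on chromosome 9 before Alkbh8, between positions 3002058 and 3032983. The strongest of these (chr9:3024051-3024225) had a lowest −log10 q of 241 and a fold of 18.7, 22.0 and 20.2 with Res-shFabp7 and 20.5, 23.6 and 20.8 with Res-ctrl. The handling of reads that match several places is unknown here, and its part in these values was not tested.

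Between groups, no far region passed the test. For each library the fold of all 56599 regions held by 6 libraries was ranked, the ranks were turned into normal scores, and limma compared 3 libraries with 3. Of the 4259 far regions, 0 were higher and 0 lower with Res-shFabp7 at an adjusted p under 0.05, as over all regions (0% higher and 0% lower). The smallest adjusted p among far regions was 0.0819. At an unadjusted p under 0.05 were 750 far regions (17.6%), of which 517 were higher with Res-shFabp7, against 7770 (13.7%) of all regions, of which 4345 were higher.

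The order of far regions within a library was nonetheless shifted upward with Res-shFabp7, by a small amount, which carries no test. The percentile of fold, averaged over the far regions, was 50.3, 50.1 and 50.2 in the Res-shFabp7 libraries and 47.7, 48.4 and 49.1 in the Res-ctrl libraries, which do not overlap. The median difference per region was 0.838 percentile points for far regions, -0.495 for all regions and -1.45 for those at gene ends. Every Res-shFabp7 library was above every Res-ctrl library in 542 far regions (12.7%), against 8.75% of all regions, and below in 342 (8.03%), against 10.9%. Res-ctrl replicates 1 and 2 had the lowest depth. Against Res-ctrl replicate 3 alone, all Res-shFabp7 libraries were above it in 1282 far regions (30.1%, against 26.4% of all) and below it in 1049 (24.6%, against 27.8%), and the median difference was 0.631 for far regions and -0.110 for all.

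Pileup, the coverage at the summit, gave calls where fold did not. Ranked by pileup, 186 far regions (4.37%) were higher with Res-shFabp7, against 2.71% of all regions, and 43 (1.01%) were lower, against 1.18% (limma, adjusted p under 0.05). Of the 186, most lay in Id2/Rnf144a (9 of its 53 far regions), Myc/Gsdmc (8 of 58), Celf2/Gata3 (6 of 35) and Ccdc54/Cblb (6), counted by stretch. Nrn1/F13a1 and Saraf/Dusp4 followed with 5 each. These stretches were picked for their number of higher calls, and none of the 43 lay in them. Without Res-ctrl replicates 1 and 2 the counts were 17 higher and 1 lower, against 0.242% and 0.0336% of all regions, with the lone Res-ctrl library assumed to vary like the others. The part of depth in the 186 and 43 calls was not tested.

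Single stretches differed in the direction of their regions. Over all regions held by 6 libraries, every Res-shFabp7 library was above every Res-ctrl library in 8.75% and below in 10.9%. In Id2/Rnf144a, 15 of 53 regions had all Res-shFabp7 libraries above all Res-ctrl libraries and 0 the reverse. Its mean percentile of fold was 52.4, 52.3 and 54.1 with Res-shFabp7 and 45.5, 45.3 and 49.2 with Res-ctrl, without overlap. In Celf2/Gata3, 10 of 35 were above and 2 below, with means of 56.3, 51.0 and 54.1 against 42.8, 47.8 and 46.6. Myc/Gsdmc had 10 above and 7 below, and means of 50.8, 51.2 and 51.2 against 44.0, 46.1 and 47.1. The regions of these 3 stretches, beside Id2, Gata3 and Myc, thus ranked higher on average in each Res-shFabp7 library than in any Res-ctrl library.

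By mean percentile, the reverse held for others. In Gm52008/Bcl11b, 1 of 45 regions was above and 6 were below, beside 8.75% and 10.9% of all regions. Its means were 43.2, 44.4 and 43.6 with Res-shFabp7 and 47.1, 46.0 and 47.7 with Res-ctrl. Klf14/Mkln1 had 2 above and 7 below, with 38.7, 37.9 and 40.5 against 42.4, 42.2 and 42.4. In Foxo1/Cog6 (0 above, 1 below), Eea1/Btg1 (3 and 2), Satb1/Kcnh8 (2 and 5) and Gm36448/Dad1 (4 and 5) the counts were more even. Of the 3 far regions nearest to the costimulatory receptor gene Cd28, all 3 were above. Celf2/Gata3 and Cd28 were named after their values were seen and the other stretches for their number of regions, and these counts carry no test.

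The regions with the largest percentile differences were picked for that difference and are described without support from it. The largest, in Gm765/Foxp1 (chr6:98553893-98554303, 211344 bp from Gm765), had a fold of 13.3, 14.5 and 17.2 with Res-shFabp7 and 4.68, 5.60 and 6.98 with Res-ctrl, and a pileup of 26, 26 and 33 against 7, 8 and 13. Its percentiles were 59.0, 63.6 and 72.3 against 9.11, 17.4 and 23.0. The normal score difference was 1.39 with a standard error of 0.21 (limma adjusted p = 0.0936). Next was Cdkn2b/Dmrta1 (chr4:89530042-89530523), with a fold of 23.3, 20.4 and 16.3 against 7.02, 4.97 and 12.5 (limma adjusted p = 0.112). Cdkn2b encodes a cell cycle inhibitor and Foxp1 a factor of T cell quiescence.

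The other higher regions were weak in Res-ctrl as well. In Id2/Rnf144a (chr12:26020682-26021029, 285939 bp from Rnf144a) the fold was 15.6, 17.9 and 15.4 with Res-shFabp7 and 4.68, 6.22 and 8.97 with Res-ctrl (limma adjusted p = 0.0971). In Atxn1/Stmnd1 it was 13.3, 16.6 and 15.3 against 4.68, 6.84 and 6.48. In Prdx6/Tnfsf4, 55243 bp from Tnfsf4, which encodes the costimulatory ligand OX40L, it was 14.8, 14.4 and 12.2 against 4.68, 6.22 and 5.98. In all 5 the Res-ctrl pileup was between 7 and 24 and lowest in replicate 1 or 2, the libraries of lowest depth. The part of depth in these values was not tested.

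Among the lower regions the largest difference was in A1bg/Myc, 545340 bp before Myc (chr15:61439803-61440200, nearest gene A1bg). Its fold was 7.73, 6.09 and 7.59 with Res-shFabp7 and 13.7, 14.4 and 12.3 with Res-ctrl, and its pileup 63, 43 and 58 against 68, 71 and 94. The normal score difference was -1.08 with a standard error of 0.19 (limma adjusted p = 0.0971). In Nrp1/Itgb1 (chr8:128594753-128595462), between the receptor gene Nrp1 and the integrin gene Itgb1, the fold was 8.17, 11.2 and 8.81 against 15.3, 13.8 and 15.6 (limma adjusted p = 0.109). Max/Fut8, D16Ertd472e/Chodl and Rnf19a/Ankrd46 completed the 5, with differences of -30.8 to -31.3 percentile points. Max encodes the partner of Myc.

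**Figure D5:**
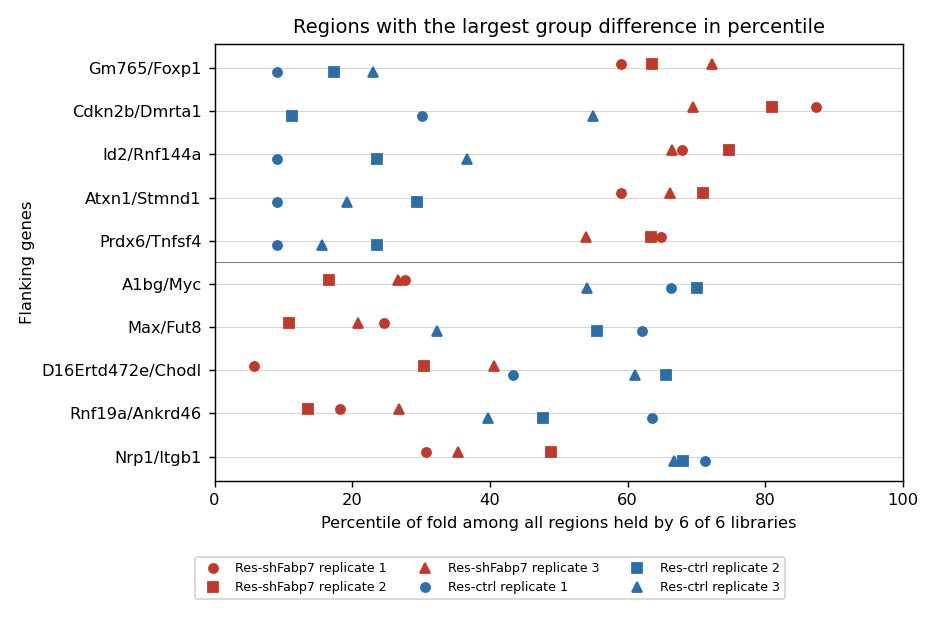
Percentile of fold among all 56599 regions held by 6 of 6 libraries (x axis) for the 5 far regions with the largest difference in each direction (y axis), 1 point per library. The groups do not overlap in any of the 10 lines because regions were picked for that; the Gm765/Foxp1 line runs from 9.11 to 72.3.

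Of all merged regions over 50 kb from a gene, 4259 of 12120 (35.1%) were held by 6 libraries and 3186 (26.3%) by 1, against 42.9% and 23.0% of the regions nearer to genes. In each library's own list, far peaks were 8.47%, 8.68% and 8.35% with Res-shFabp7 and 7.74%, 7.64% and 8.14% with Res-ctrl. The means were 8.50% ± 0.168 and 7.84% ± 0.266 (SD over 3 libraries each); an exact two-sided permutation gave p = 0.1, which is the lowest value possible for 3 against 3. With equal numbers of peaks per library they were 8.03% ± 0.0415 and 7.71% ± 0.0939, with the same p by the exact permutation. The groups did not overlap in either comparison, and the difference was 0.663 percentage points in the first and 0.316 in the second.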

How the data were processed

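Per the submitters' processing notes, MACS2 2.2.7.1, Bowtie 1.1.2, cutadapt 2.8 and Trim Galore 0.6.5 were used on mm10. Libraries were read as 2 times 76 bases, at 35 to 75 M read pairs, per the labels' protocols. The treatment of duplicates, of reads with several matches and of the transposase offset is unknown here. Each library has its own list of peaks at q under 0.05, as deposited, so replicates were not pooled. The deposited lists give p-values and q-values as −log10, the pileup as a coverage signal at the summit, and the fold as a ratio to local background. The depth of single libraries is known only through the background pileup.

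Peaks on chromosomes 1 to 19 and X were merged at an overlap of 1 bp (starts count from 0 in the lists and from 1 here). Gene positions and promoter windows came from RefSeq tables of GRCm38.p6. The gene table has neither strand nor exons, so introns, exons and UTRs are not given. Where a library has several peaks in a region, the highest fold was used. Ranks over the 56599 regions held by all libraries were turned into normal scores and tested with limma 3.58.1 (R 4.3.3; trend, Benjamini-Hochberg), a script tested on simulated data. Class medians were compared by exact sign-flip permutation and group means by exact permutation (scipy 1.17.1). Named are the 10 strongest far regions, the 5 farthest, the 5 widest, the 10 fullest stretches, the 5 per direction of largest percentile difference, the strongest beside 9 T cell genes, the 3 on each side of the distance threshold and the 5 strongest on or within 1 kb of a non-coding gene. Receptor loci, the miR-17 cluster, chromosome starts, Celf2/Gata3, Cd28 and the stretches with most pileup calls were added after their values were seen. Members, lists and alternatives were chosen with earlier results of these data known. No sequence of regions other than promoter windows is shown, since no genome sequence was used here. The result of 1 marker gene is not reported here.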

Additional observations from a re-analysis of the deposited data

How the results depend on the processing

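The number of far regions followed the distance and the annotation: 8172 at 20 kb, 2219 at 100 kb and 661 with non-coding genes counted as genes. It was 4327 to 4759 when 1 library was left out, and it stayed within 1.5 times of 4259 under all other alternatives (14 in all), between 2966 with peaks covering at least 50% of the region and 5533 without Res-ctrl replicates 1 and 2. Without the antigen receptor loci and the first 3.1 Mb of chromosomes it was 4115, and with equal numbers of peaks 3839. The limma test on fold ranks called 0 far regions in either direction under all 12 alternatives that kept fold. With pileup it called 186 higher and 43 lower, 17 and 1 without Res-ctrl replicates 1 and 2, and 260 and 36 without Res-ctrl replicate 3 (2101 and 729 of all 56599 regions). The pileup alternatives with libraries left out or a block, and the removal of both shallow libraries, were chosen after seeing the data.

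Replicate numbers are shared by the groups, and the labels do not say whether they pair the samples. The deviations of same-numbered libraries correlated at -0.0235, 0.0191 and -0.00805. These values gave no sign of pairing but cannot show that the samples are unpaired. With the replicate number as a block, 0 and 0 far regions were called on fold and 225 and 56 on pileup (1832 and 846 of all regions).

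The fold difference against all other regions passed the test with means in place of medians, at -0.677, and the width difference did with means, at -32.5 bp, and at 20 kb, at -7.25 bp. Without 1 library the differences against gene ends were -5.04 to -4.80 in fold, -166 to -159 bp in width and 3.0 to 3.4 bp in summit offset, and the offset against other regions 1.4 to 1.6 bp. With 5 libraries the sign-flip test cannot pass the threshold.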
